A study of Mus musculus with 3 samples.

Results

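CCT (also called TRiC) is the cytosolic chaperonin, a barrel of stacked rings in which each ring is built from 8 different subunits, a single copy of each in a fixed order. It takes up newly made actin and tubulin, encloses them and releases them folded, and neither protein reaches its native form without it. Transcripts of its subunit genes were measured in the hearts of wild-type (WT) C57BL/6J mice, an inbred laboratory strain, at day 9 after birth, when heart muscle cells are assembling actin filaments and microtubules. The 9 genes of the family in the table were chosen by symbol, Tcp1, Cct2, Cct3, Cct4, Cct5, Cct6a, Cct6b, Cct7 and Cct8, out of 18038 genes in all. Cct6a and Cct6b encode alternative versions of the same ring position, zeta, and Cct6b is known as the testis version. The other 8 genes, called core subunits here, make up the common ring.

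The 3 hearts, called 1, 2 and 3 after their replicate numbers, form a single group with no treatment and no second genotype. Trizol extracts of whole heart tissue were made into DNBSEQ libraries. Genes were therefore compared with one another inside each heart, and each gene with itself across hearts. The labels do not say whether the hearts came from separate animals or litters, so the p-values cover the variation among these 3 samples alone, and that variation may be technical. In bulk tissue, fewer cells of a type and less RNA per cell cannot be told apart. The study's title concerns glutamylated microtubules and the coupling of heart muscle cells, and CCT folds the tubulin of those microtubules.

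Library totals ran between 17766501 and 18768094 counts, and 12958 genes were detected, that is, reached 1 CPM (a count scaled to a library of 1000000) in every heart. All 5 heart muscle markers were detected, with summed levels between 77833 and 81305 TPM (the deposited FPKM scaled so that each heart adds up to 1000000). Heart 1 stood apart by airway genes: the 10 airway and lung markers summed to 2516 TPM in heart 1, 1.58 TPM in heart 2 and 9.30 TPM in heart 3, and all 10 were highest in heart 1. The alveolar markers Sftpc and Sftpb were at 0.626 and 0.938 TPM in heart 1 and at 0 in the others. For the CCT genes and their pairs, results whose call or size changed when heart 1 was left out are given with and without it. Calls of variation in other genes were not repeated without heart 1, and the part of these airway transcripts in any result was not tested.

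The bases just before the start sites show what the subunit genes share in sequence. Of the 9 genes, 8 had a promoter entry in the RefSeq table of GRCm38.p6, and 250 bases before each start were searched on both strands. A GC box (GGGCGG or its reverse CCGCCC), the binding motif of Sp1-type factors, occurred in 7 of 7 core promoters with an entry, against 32.9% of all 27025 promoters and 59.5% of the 10316 promoters of detected genes. A CCAAT box (CCAAT or ATTGG), the motif of NF-Y, occurred in 4 of those 7, Tcp1, Cct3, Cct6a and Cct7, against 34.5% of all promoters and 36.6% of those of detected genes. The ETS element CCGGAAG (or CTTCCGG) was found before Cct2, Cct8 and Cct6b, and in 7.05% of all promoters and 13.6% of those of detected genes. No member had TATAAA (or TTTATA), which 13.0% of all promoters and 6.26% of those of detected genes held. Of the paired heat shock half-sites, GAANNTTC was found in no member, in 6.78% of all promoters and in 4.85% of those of detected genes. TTCNNGAA was found before Cct5 alone, in 7.10% of all promoters and in 5.67% of those of detected genes. No motif overlapped another in these windows, and a match in this window is a description of sequence.

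Promoters are printed below over the last 140 bases before the start, 5′ to 3′ on the gene's own strand, with GC and CCAAT boxes in capitals. They are those of the core subunit with the highest transcript level (Tcp1), the next (Cct2), the lowest (Cct7), and the zeta pair, of which Cct6a was abundant and Cct6b was not detected. On GRCm38.p6 they lie at chr17:12916189-12916328 (plus strand), chr10:117063853-117063992 (minus), chr6:85451365-85451504 (plus), chr5:129787216-129787355 (plus) and chr11:82764322-82764461 (minus).
Tcp1: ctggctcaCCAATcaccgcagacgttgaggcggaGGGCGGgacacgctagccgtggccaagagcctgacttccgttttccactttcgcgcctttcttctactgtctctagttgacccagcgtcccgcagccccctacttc
Cct2: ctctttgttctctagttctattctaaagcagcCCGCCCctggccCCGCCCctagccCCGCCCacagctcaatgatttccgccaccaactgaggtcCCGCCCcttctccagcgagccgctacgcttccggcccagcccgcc
Cct7: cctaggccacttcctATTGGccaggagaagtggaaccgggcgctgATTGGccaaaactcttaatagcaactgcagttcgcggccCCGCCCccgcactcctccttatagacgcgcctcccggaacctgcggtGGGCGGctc
Cct6a: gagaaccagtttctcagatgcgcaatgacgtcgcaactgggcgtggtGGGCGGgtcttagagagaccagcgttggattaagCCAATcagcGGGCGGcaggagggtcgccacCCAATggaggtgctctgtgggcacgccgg
Cct6b: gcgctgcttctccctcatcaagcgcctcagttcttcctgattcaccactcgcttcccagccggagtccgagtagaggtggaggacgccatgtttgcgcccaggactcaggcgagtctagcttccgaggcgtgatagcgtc

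The Cct2 stretch holds a row of GC boxes and no CCAAT box, whereas Tcp1, Cct6a and Cct7 hold both. The Cct6b stretch holds neither, nor did the full 250 bases searched.

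A further shared feature was a close neighbour on the opposite strand. For 6 of the 8 members with an entry (75%), another gene started within 1000 bases and ran the other way, against 11.4% of the 14128 genes of the table with an entry and 13.8% of the detected ones. The distances between starts were 238 bases for Tcp1 and Mrpl18, 136 for Cct3 and Tsacc, 270 for Cct5 and Fam173b, 103 for Cct6a and Psph, 24 for Cct6b and Zfp830, and 203 for Cct7 and Pradc1. The neighbours' transcript levels did not follow those of the subunits in size. Mrpl18, a mitochondrial ribosomal protein, was at 261 ± 20.6 TPM (SD, n = 3, as for all values given with ±), close to Tcp1. Psph, the last enzyme of serine synthesis, was at 12.99 ± 1.68 TPM, Pradc1 at 22.4 ± 0.999, Fam173b at 14.8 ± 1.89 and Tsacc at 6.52 ± 2.86 TPM, all far below the subunit beside them. Zfp830 was at 10.6 ± 1.13 TPM beside the undetected Cct6b.

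All 8 core subunits were abundant, within about a factor of 2 of one another, and ordered the same way at the top in every heart. Tcp1, the alpha subunit (Entrez gene ID 21454, chromosome 17, 12916329 to 12944406, plus strand, GRCm38.p6), was the highest, with 221, 235 and 222 TPM in hearts 1, 2 and 3, a mean of 226 TPM with a coefficient of variation of 3.54%. Cct2, the beta subunit (ID 12461, chromosome 10, 117050998 to 117063814, minus strand), had 182, 188 and 179 TPM, a mean of 183 ± 4.79. Cct5, the epsilon subunit, which is mutated in a human hereditary sensory neuropathy (ID 12465, chromosome 15, 31590813 to 31601804, minus strand), had 173, 183 and 168 TPM, a mean of 175 ± 7.77. These 3 genes were above every other subunit in each heart.

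The other 5 core subunits lay close together. Cct4, the delta subunit, which touches actin in structures of the mammalian complex (ID 12464, chromosome 11, 22990593 to 23030791, plus strand), had 133, 131 and 127 TPM, a mean of 130 ± 3.09. Cct8, the theta subunit (ID 12469, chromosome 16, 87483325 to 87495869, minus strand), had 121, 126 and 125 TPM, a mean of 124 ± 2.32. Cct6a, the zeta subunit (ID 12466, chromosome 5, 129787085 to 129863951, plus strand), had 114, 125 and 127 TPM, a mean of 122 ± 6.65. Within this group the hearts of different genes overlapped: the Cct8 and Cct6a values interleave.

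Cct3, the gamma subunit (ID 12462, chromosome 3, 88297135 to 88321766, plus strand), had 113, 122 and 113 TPM, a mean of 116 ± 5.32. Cct7, the eta subunit (ID 12468, chromosome 6, 85451505 to 85468477, plus strand), had 115, 117 and 108 TPM, a mean of 113 ± 4.55, the lowest of the 8. Across Cct3, Cct4, Cct6a, Cct7 and Cct8 the highest was 1.17, 1.12 and 1.17 times the lowest in hearts 1, 2 and 3. Among detected genes the core subunits ranked between 627 (Tcp1) and 1308 (Cct7) by mean TPM. Counting error was small, since every core subunit had at least 1918 counts in each heart.

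**Figure D1:**
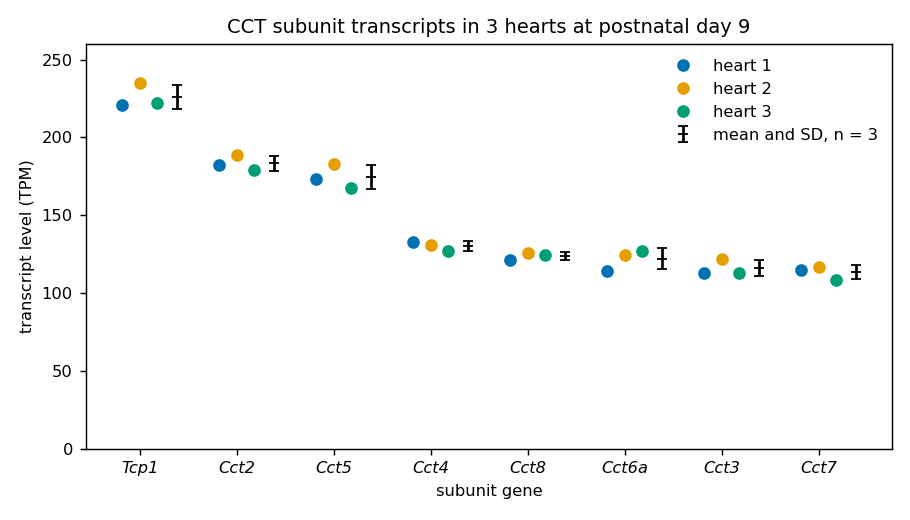
Transcript level in TPM (vertical axis, from 0) of the 8 core CCT subunits (horizontal axis, ordered by mean) in each heart (coloured points), with the mean and SD of the 3 hearts (black). Tcp1, Cct2 and Cct5 sit between 168 and 235 TPM and the other 5 between 108 and 133 TPM, with no overlap between these sets.

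Together the 8 core subunits held 1173, 1227 and 1168 TPM in hearts 1, 2 and 3, a mean of 1189 ± 32.5 TPM or 0.119% ± 0.00325 of all TPM. The highest subunit was 1.95, 2.01 and 2.05 times the lowest, and Tcp1 was 1.62, 1.66 and 1.64 times the mean of the other 7. The SD over the 8 subunits of their log2 TPM, a measure of how unequal they are, was 0.373 ± 0.00633. For the 14 constitutive subunits of the 20S proteasome, another barrel with a fixed number of each subunit, it was 0.405 ± 0.0211, with the highest 2.98, 2.90 and 3.17 times the lowest. For the 6 subunits of prefoldin, the co-chaperone that hands actin and tubulin to CCT, it was 1.36 ± 0.103, with the highest 23.0, 17.0 and 15.0 times the lowest. In all 3 hearts the CCT value was the lowest of these complexes. These differences in spread have no test, and the CCT value was 0.409 to 0.547 with the other length choices described below.

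Each of the 28 pairs of core subunits was tested for unequal levels per length with edgeR's quasi-likelihood test, with the heart as a block and Benjamini-Hochberg adjustment over all genes set against the same subunit. Of the 28 pairs, 19 passed an adjusted p of 0.05. The background is high: of all detected genes, 98% differed from the subunit they were set against (99% against Tcp1, 98.8% against Cct2, 97.3% against Cct3, 97.9% against Cct4, 98.6% against Cct5, 97.1% against Cct6a and 97.3% against Cct7). With so many genes called, the adjustment changed the p-values little: 19 pairs also had an unadjusted p under 0.05. The 28 pairs were not adjusted among themselves. The size of the ratios tells more than the count. The median absolute log2 ratio was 0.46 over the 28 pairs and 2.99 over all detected genes against the same subunits, and 12.3% of detected genes lay within the largest ratio between core subunits (0.995 on the log2 scale). An error in a subunit's own level is shared by every ratio that contains it, so the pairs are not independent, and gene length error is not in the intervals.

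All 15 pairs between the 3 highest subunits and the other 5 passed the test, with absolute log2 ratios of 0.42 to 0.995. These sets were chosen from the levels, so this count describes the order. Cct7 over Tcp1 was the widest at -0.995 on the log2 scale (95% interval -1.13 to -0.87, SE 0.0545, edgeR adjusted p = 6.04e-07), lower in 3 of 3 hearts. Cct5 over Cct4 was the narrowest at 0.42 (interval 0.29 to 0.55, SE 0.0541, edgeR adjusted p = 0.000155), higher in 3 of 3 hearts. Within the top set, Cct2 was below Tcp1 by -0.30 on the log2 scale (SE 0.0525, edgeR adjusted p = 0.000825) and Cct5 was below Tcp1 with -0.37 (SE 0.0525, edgeR adjusted p = 0.000242), each in 3 of 3 hearts. Both calls depended on the transcript length, as given below. Cct5 over Cct2 was -0.070 (interval -0.19 to 0.048, edgeR adjusted p = 0.201).

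Among the other 5 subunits, 2 of 10 pairs passed, both with Cct4. Cct4 was above Cct3 by 0.17 on the log2 scale (SE 0.0578, edgeR adjusted p = 0.0243), and Cct7 was below Cct4 with -0.20 (SE 0.0524, edgeR adjusted p = 0.00769), each in 3 of 3 hearts. Cct7 over Cct4 passed in every other setting too, but not in a single direction. With no length correction, and with retained-intron transcripts left out (0.16), Cct7 was above Cct4. The Cct4 over Cct3 call was lost without heart 2 (0.20, edgeR adjusted p = 0.0536), without heart 3 (0.16, edgeR adjusted p = 0.0978) and with DESeq2's Wald test (0.17, adjusted p = 0.0530), at about the same ratio. Cct8 over Cct7 was 0.13 (interval -0.0043 to 0.26, edgeR adjusted p = 0.0574) and passed without heart 1 (0.16, edgeR adjusted p = 0.0296). The remaining pairs did not pass: Cct8 over Cct6a was 0.023 (interval -0.15 to 0.19; -0.0075 without heart 1), Cct7 over Cct3 -0.034 (-0.17 to 0.098) and Cct7 over Cct6a -0.11 (-0.29 to 0.075). Over the 9 pairs that did not pass, the intervals reached at most 0.29 on the log2 scale, a 1.22-fold difference, but only with the length implied by the table. With the longest GENCODE transcript 7 of these 9 pairs passed, with Cct8 over Cct3 at 0.87, Cct8 over Cct7 at 0.79, Cct6a over Cct3 at 0.67 and Cct7 over Cct6a at -0.59. These subunits are therefore not shown to be equal.

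**Figure D2:**
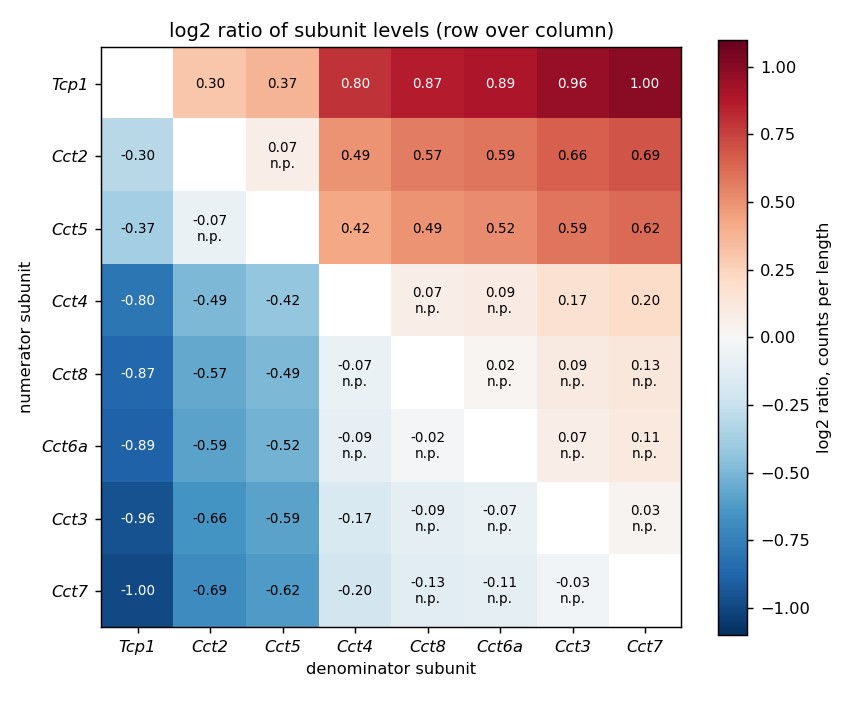
Log2 ratio of length-scaled counts of the subunit in the row over the subunit in the column, for the 8 core subunits ordered by mean TPM. Colour and printed value give the ratio and n.p. marks the 9 pairs not past an edgeR adjusted p of 0.05, all but 1 of them among the lower 5 subunits.

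The order below the top 3 depended on the transcript length used, and the order at the very top did so in part. Relative to the geometric mean of the 8, Tcp1 was at a log2 ratio of 0.65 with the length implied by the deposited table, 0.88 with no length correction, 0.51 with the longest GENCODE transcript, and 0.75 when retained-intron transcripts were left out. Cct2 had 0.35, 0.22, 0.65 and 0.41 on the same scales, so that with the longest GENCODE transcript Cct2 over Tcp1 turned to 0.14 (edgeR adjusted p = 0.0292). With that length Cct5 over Tcp1 was -0.0029 and did not pass (edgeR adjusted p = 0.956). Cct4 had -0.15, -0.27, -0.18 and -0.42, the lowest of all on the last of these. Tcp1, Cct2 and Cct5 were the 3 highest on all 4 scales, and 14 of the 15 pairs between them and the others passed in all 11 other settings tried. The exception was Cct8 over Cct5, at -0.043 with no length correction (edgeR adjusted p = 0.459).

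**Figure D3:**
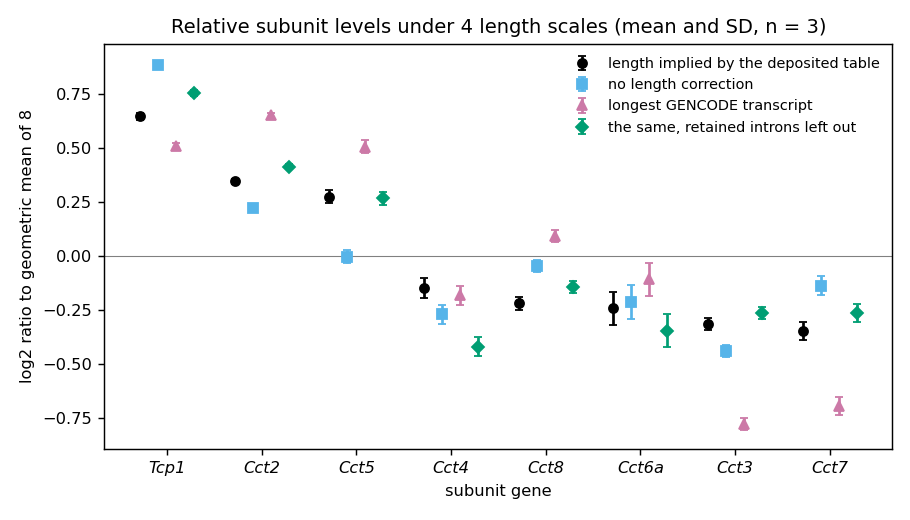
Log2 ratio of each core subunit to the geometric mean of the 8 (vertical axis; mean and SD of 3 hearts) with 4 choices of gene length. Tcp1, Cct2 and Cct5 are the 3 highest under each choice, while Cct3, Cct4 and Cct7 trade places at the bottom.

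In yeast, Tcp1, Cct2, Cct4 and Cct5 are the subunits that bind ATP with higher affinity, and they sit side by side in the ring. In these hearts they were the 4 with the highest mean TPM. That held with the length implied by the table and with neither of the GENCODE lengths nor with no length correction, on which Cct8 stood above Cct4. Even with the implied length, Cct8 over Cct4 (-0.071, edgeR adjusted p = 0.236) and Cct6a over Cct4 (-0.094, edgeR adjusted p = 0.181) did not pass the pair test. The place of Cct4 among these 4 is therefore not settled.

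Cct6b (ID 12467, chromosome 11, 82715010 to 82764321, on the plus strand in the table and the minus strand in RefSeq and GENCODE) was not detected. It had 5, 2 and 2 counts in hearts 1, 2 and 3, against 2166, 2426 and 2579 counts of Cct6a. Its share of the zeta counts was 0.230% in heart 1 (exact Clopper-Pearson 95% interval 0.0748% to 0.537%), 0.0824% in heart 2 (0.00998% to 0.297%) and 0.0775% in heart 3 (0.00939% to 0.280%). The intervals overlap, and over all hearts 9 counts of Cct6b gave 0.125% (0.0573% to 0.238%). These intervals cover counting error only. Cct6b over Cct6a was -9.11 on the log2 scale per length (SE 0.279, edgeR adjusted p = 5.48e-12), lower in 3 of 3 hearts. The deposited counts place Cct6b on the strand opposite to RefSeq, and no strand setting is given. Whether this lowered its counts, and with them its share and this ratio, was not tested.

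The transcripts of Cct6a and Cct6b are 77.1% identical over 1184 aligned bases. Markers of the testis germ line, the tissue in which Cct6b is best known, were low: 1 of 7 measured genes was detected, the sperm head protein gene Zpbp at 1.80, 1.94 and 2.28 TPM. The 7 markers summed to 3.46, 4.56 and 5.49 TPM in hearts 1, 2 and 3, and Prm2 was at 0 in every heart. Heart 1, which had the most Cct6b counts, was also the heart with the airway transcripts, and without it the log2 ratio of Cct6b over Cct6a was -9.74 (-8.88 without heart 2 and -8.84 without heart 3). Over hearts 2 and 3 alone, 4 of 5009 zeta counts were Cct6b, a share of 0.0799% (0.0218% to 0.204%).

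The core subunits varied little between hearts. The highest heart was 1.04 to 1.11 times the lowest for each of them, and the SD over hearts of log2 TPM had a median of 0.055 over the 8 subunits, 0.13 over all detected genes and 0.089 over the 1587 genes within 2-fold of the subunits' geometric mean. By edgeR's goodness of fit against genes of like abundance, 0 of 9 members passed an adjusted p of 0.05 and 0 passed an unadjusted p of 0.05, against 1.66% and 6.22% of detected genes. The background is low, so a count of 0 among 9 is near it, and 3 hearts leave little power for small differences. Against counting error alone, 2 members passed, Cct6a (edgeR adjusted p = 1.10e-05) and Tcp1 (edgeR adjusted p = 0.0122), against 46.7% of detected genes.

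Heart 2 had the highest TPM for 6 of 8 core subunits, Tcp1, Cct2, Cct3, Cct5, Cct7 and Cct8, and for 4 of 8 by CPM. Cct4 was highest in heart 1 and Cct6a in heart 3. The 8 proliferation markers also summed highest in heart 2, at 379, 434 and 360 TPM in hearts 1, 2 and 3. Of these markers 5 were highest in heart 2, 1 in heart 1 and 2 in heart 3, and their part in the subunits' levels was not tested. Of the lists set out below, tubulins, upstream chaperones, CCT modulators, the mitochondrial chaperonin and the BBSome chaperonins summed highest in heart 2. Gene by gene, 3 of 12 tubulins were highest in heart 2 and 7 in heart 3. Of 12 upstream chaperones 5 were highest in heart 2 and 6 in heart 3. Highest in heart 2 were also 2 of 3 CCT modulators, 1 of 2 mitochondrial chaperonin genes and 1 of 3 BBSome chaperonins. Prefoldin, the prefoldin-like genes, the 20S proteasome and the other clients summed highest in heart 1, and actins in heart 3. Cct6a had the largest SD over hearts. Its length-scaled count ratio to Cct4 was 0.862 in heart 1 (exact 95% interval 0.812 to 0.914), 0.953 in heart 2 (0.900 to 1.01) and 1.00 in heart 3 (0.946 to 1.06). These intervals cover counting error only. The partner Cct4 was highest in heart 1, and against Cct3 the ratios of Cct6a had overlapping intervals, 1.01 in heart 1 (0.951 to 1.08) and 1.12 in heart 3 (1.06 to 1.19). Against Cct7, which was lowest in heart 3, the ratio was 0.994 in heart 1 (0.938 to 1.05), 1.07 in heart 2 (1.01 to 1.13) and 1.17 in heart 3 (1.11 to 1.24). There the intervals of hearts 1 and 3, again for counting error only, did not overlap. The mean ratio of Cct6a to Cct4 over the 3 hearts did not pass the pair test (log2 ratio -0.094, edgeR adjusted p = 0.181). That test asks for unequal mean levels and does not test change between hearts.

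**Figure D4:**
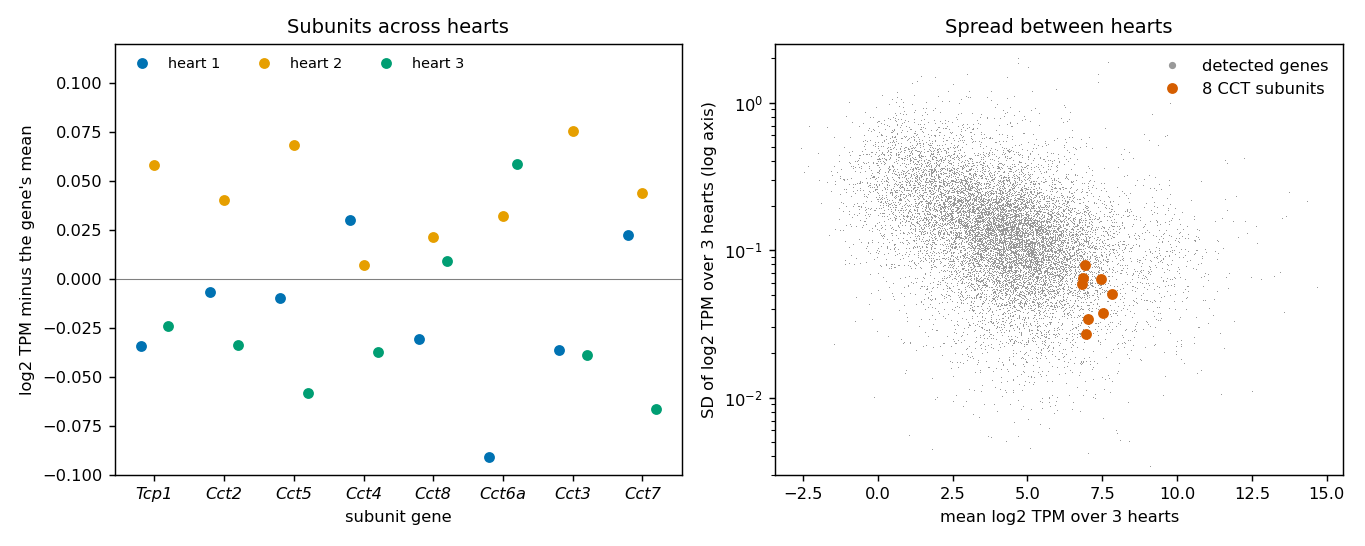
Left, log2 TPM of each core subunit minus its mean over the 3 hearts, with a point for each heart. Right, SD of log2 TPM over the 3 hearts (log axis) against mean log2 TPM for all detected genes (grey) and the core subunits (orange), whose SDs run from 0.027 (Cct8) to 0.080 (Cct6a).

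Genes whose level followed the subunits most closely over the 3 hearts were found by the SD of their log2 ratio to the geometric mean of the 8, among 1587 candidates of like level. The 5 with the smallest SD were Psmd3, a subunit of the proteasome's regulatory particle (137, 143 and 136 TPM, SD 0.0033), Rab5a, an early endosome GTPase (76.0, 79.3 and 75.4 TPM, SD 0.0037), Prdx6, a peroxiredoxin (SD 0.0044), Chp1 (SD 0.0057) and Mtx2, of the mitochondrial outer membrane (SD 0.0086). Over 3 hearts such likeness is a description. Among the subunits themselves, each of which is part of that geometric mean, the SD ran from 0.012 for Cct2 to 0.078 for Cct6a. Of the 1587 candidates, 19 had a smaller SD than Cct2 and 632 a smaller SD than Cct6a.

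The genes that work with CCT were set beside it by role. Prefoldin was detected in 6 of 6 genes, led by Pfdn5 at 321 ± 17.7 TPM, with Pfdn1 at 117 ± 8.69, Pfdn6 at 108 ± 4.09, Pfdn2 at 93.1 ± 4.21, Vbp1 at 69.9 ± 6.56 and Pfdn4 at 17.9 ± 2.98 TPM. The geometric mean of CCT was 1.64 ± 0.0330 times that of prefoldin. The phosducin-like modulators of CCT were lower, Pdcl3 at 74.4 ± 11.1, Txndc9 at 56.4 ± 1.34 and Pdcl, which brings G protein beta subunits to CCT, at 25.4 ± 3.48 TPM. All 8 genes of the prefoldin-like and R2TP complexes were detected, led by Pdrg1 at 109.8 ± 12.6 and Uxt at 55.7 ± 5.96 TPM. The chaperonin-like genes that act with CCT in building the BBSome, a ciliary complex, were far lower, Mkks at 31.6 ± 3.29, Bbs10 at 2.67 ± 0.469 and Bbs12 at 2.63 ± 0.181 TPM.

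The mitochondrial chaperonin subunit Hspd1 had 307, 359 and 348 TPM, which is 2.16, 2.42 and 2.45 times the geometric mean of the CCT subunits, and its lid protein Hspe1 was at 182 ± 7.21 TPM. The list of upstream chaperones held 12 genes, among them cofactors and a heat shock transcription factor. Of these 12, 2 were above the highest core subunit: Hspa8, the constitutive Hsp70, at 1514 ± 95.5 TPM and Hsp90ab1 at 1145 ± 35.7 TPM. Hsp90aa1 at 169 ± 12.5, Bag3 at 153 ± 8.49, Stip1 at 131 ± 10.3 and St13 at 126 ± 5.63 TPM lay in the range of the CCT subunits, and the other 6 lay below it, down to 3.25 TPM. Of the 48 genes in these lists and the 20S proteasome, 0 passed the test of variation between hearts (edgeR goodness of fit), against 1.66% of detected genes. A count of 0 among 48 is near that share. At unadjusted p under 0.05 the count was also 0, against 6.22% of detected genes. Against counting error alone 27 of the 48 passed, against 46.7% of detected genes.

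Actins as a family were far more abundant than the ring, tubulins moderately so, and most other clients less. The 6 actins summed to 19841, 24205 and 26940 TPM in hearts 1, 2 and 3, which is 16.9, 19.7 and 23.1 times the summed CCT subunits, and most of it was cardiac actin, Actc1, at 20958 ± 2984 TPM. The 12 tubulins summed to 2771, 2989 and 2946 TPM, 2.36, 2.44 and 2.52 times the CCT sum. Single tubulins ran from 4.13 to 954 TPM, with 5 above the highest core subunit and 7 below the lowest. By the test of variation, which 1.66% of detected genes passed, 2 of 6 actins passed, Acta1 (24.7, 74.2 and 129.6 TPM) and Acta2 (303, 670 and 918 TPM), and 1 of 12 tubulins, Tuba8 (45.8, 90.8 and 124.8 TPM). All 3 were lowest in heart 1, the heart with the airway transcripts, and these calls were not repeated without it. The summed subunits were at 1173 TPM in heart 1, 1227 in heart 2 and 1168 in heart 3. A sum over genes is not a like measure to these 3 single genes, which were picked by the test of variation. Among 13 other clients and candidate clients, all detected, 0 passed. At unadjusted p under 0.05 were 2 of these 13, 2 of 6 actins and 4 of 12 tubulins, against 6.22% of detected genes. The highest were Tcap at 476 ± 97.6, Gnb2 at 294 ± 17.4 and Gnb1 at 173 ± 6.92 TPM, and 10 of the 13 lay below the lowest core subunit, down to 8.07 TPM. Their sum, 1324 ± 129.9 TPM, was close to that of the core subunits.

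**Figure D5:**
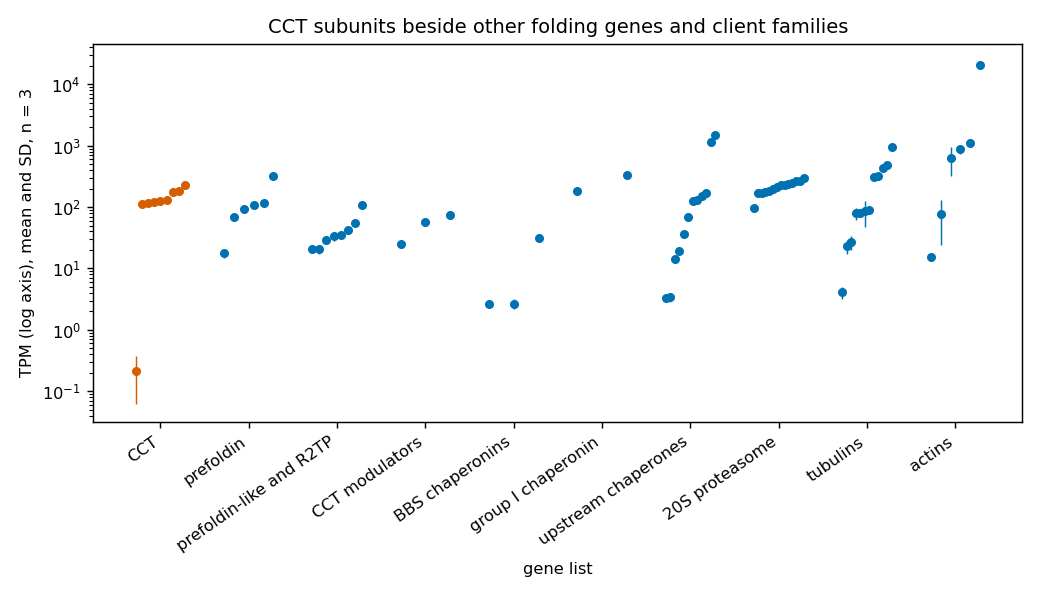
Mean TPM with SD over 3 hearts (log axis) of the 9 CCT genes (orange) and of genes in lists of related chaperones, the 20S proteasome, tubulins and actins (blue), each list ordered by level. The 8 core subunits form a narrow band between 113 and 226 TPM, with Cct6b alone below 1 TPM.

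Some counts may hold reads of other genes. Tcp1 and Cct8 have fractional counts in the table. The Tcp1 transcript shares 574 bases with Acat3 (100% identity) and 445 with Acat2 (98.7%), which were at 0.175 ± 0.106 and 9.12 ± 2.41 TPM, and Cct8 overlaps Usp16 (39.6 ± 3.55 TPM) by 1533 bases of gene span. Cct6a shares 452 bases with Psph and Cct7 215 bases with Pradc1, both at 100% identity. By gene span in the table, Cct6a overlaps Sumf2 (10.3 ± 1.11 TPM) by 16962 bases and Phkg1 (11.7 ± 0.777 TPM) by 517, and Cct4 overlaps Fam161a (2.24 ± 0.892 TPM) by 24787. Lrrc10, a heart muscle gene on the other strand of the table, overlaps Cct2 by 7126 bases of gene span and was at 132 ± 15.8 TPM. Since no strand setting is given, a read from such an overlap cannot be assigned by strand. Processed pseudogenes resemble Cct3 (Cct3-ps1, 91.0% identity over 1445 bases) and Cct7 (Gm5380, 93.5% over 569 bases). The counts of Cct3 and Cct7 were whole numbers in every heart, so they show no fractional split. Whether reads were placed on the wrong copy was not tested, so the levels of these genes remain uncertain to that extent. The table's spans of Tcp1, Cct4 and Cct6a run past the ends that RefSeq gives.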

How the data were processed

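The deposited table gives, per the file headers, a read count and an FPKM per gene for each of 3 hearts. Of the counts, 87.5% to 87.6% lay within 0.005 of a whole number, so the deposited values were taken to be expected counts that the authors had estimated. The authors' FPKM were rescaled to TPM. The submitters' processing notes name HISAT and GRCm38.p6. For the counter, the annotation and the strand setting, nothing is given in the sources used here. One line without a gene and the authors' mean columns were left out.

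Subunit pairs were compared by two-sided quasi-likelihood tests in edgeR 4.0.16 (with limma 3.58.1 and R 4.3.3) on the expected counts rounded to whole numbers. A fit was made for each of the 7 earlier subunits in the order Tcp1, Cct2, Cct3, Cct4, Cct5, Cct6a, Cct7, Cct8. Each row held a gene and that subunit in 3 hearts, with the heart as a block and an offset of TMM-scaled library size times the length implied by the authors' counts and FPKM. Rows were the other detected genes and Cct6b, 12958 in all, and p-values were adjusted over them by Benjamini-Hochberg (threshold 0.05). TMM factors were 1.02, 0.998 and 0.986. Variation used edgeR's goodness of fit with trended dispersion. Fits were tested on simulated data, where false calls averaged under the threshold over simulated subunits but varied widely from subunit to subunit, since the error of a subunit is shared by all rows of its fit. The counts of no pair of hearts agreed within sampling noise (chi-square per degree of freedom 10.1 to 24.9), so each heart counted as a sample.

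Alternatives were DESeq2 1.42.0 size factors and Wald test, limma on log2(TPM + 0.5), other lengths, no detection filter, no replicate block, common or counting-error dispersion, and leaving out each heart. The lengths from GENCODE transcripts were chosen after seeing the data. The members and lists were chosen with earlier results of these data known. Named genes were all members, at most the 6 highest detected genes of each list, those past the variation test, neighbouring genes, and the 5 genes most like the subunits; Prm2, Sftpc, Sftpb and the pseudogenes were named outside this rule. Promoters come from RefSeq GRCm38.p6 and transcripts from GENCODE vM21.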

Additional observations from a re-analysis of the deposited data

How the results depend on the processing

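The count of unequal pairs was 19 and ran from 18 to 25 over the 11 other settings, with 18 to 20 when a heart was left out. It was 20 with no replicate block, where Cct8 over Cct7 also passed (0.13, edgeR adjusted p = 0.0176). No groups were compared, so no pairing between groups arises. Of the 28 pairs, 14 kept direction and call in every setting. Gene length turned the direction of some, and Cct7 over Cct4 passed the test in either direction. With no length correction, Cct7 over Cct3 was 0.30, Cct6a over Cct4 0.057, Cct7 over Cct4 0.13, Cct8 over Cct4 0.22 and Cct7 over Cct6a 0.075. With the longest GENCODE transcript, Cct2 over Tcp1 was 0.14, Cct7 over Cct3 0.085, Cct6a over Cct4 0.075 and Cct8 over Cct4 0.28. With retained introns left out, Cct4 over Cct3 was -0.16, Cct6a over Cct3 -0.082, Cct7 over Cct3 0.00083, Cct6a over Cct4 0.075, Cct7 over Cct4 0.16, Cct8 over Cct4 0.28 and Cct7 over Cct6a 0.083. These lengths set the offset, so the change follows from their construction. Cct8 over Cct6a ran from -0.0075 without heart 1 to 0.048 without heart 3. The count of members that vary was 2 against counting error only and 0 to 0 with a heart left out. The spread among core subunits was 0.409 in CPM, 0.547 with the longest transcript and 0.427 without retained introns, and 0.370 to 0.376 with a heart left out. The summed level was 1250 CPM, 1278 with the longest transcript and 1361 without retained introns, and 1171 to 1200 TPM with a heart left out. The planned longest RefSeq transcript length was not run, since the tables used here gave none for Cct6a. Which length fits these hearts was not tested, and differences between neighbouring subunits are limited more by length than by depth.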
